A study of Mus musculus with 21 samples.

Results

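The comparison described here is the knockdown of Hsp90aa1 in cultured fibroblasts of the normal mouse mammary gland that were treated with TGFb1. Its members are 6 of the 21 libraries of the study, chosen by their titles: 3 in which the cells of the line NF1 received siRNA against Hsp90aa1 (siHsp90aa1) and 3 in which they received control siRNA (siCtr), numbered 1 to 3 in each group. All 6 came from FVB/n mammary fibroblasts transfected at 60% confluence with 100 nM siRNA in medium with 10% serum, given 5 ng/mL TGFb1 5 h later and lysed 48 h after transfection. Neither the age of the animals nor the siRNA sequences were used here, and the siRNAs against the HSP90 genes were pools. The other libraries named below are NF1 with siCtr and vehicle, NF1 with siRNA against Hsp90ab1 (siHsp90ab1) and TGFb1, and the line CAF1, fibroblasts of mammary tumours that arise in the MMTV-PyMT strain because its mammary epithelium expresses a polyoma oncogene, with siCtr or siHsp90aa1 and vehicle, each with 3 libraries. Each tissue is represented by a single line, no knockdown in NF1 was measured without TGFb1, and the labels do not say whether replicates were separate cultures or animals, so a p-value speaks of the variation among the sequenced libraries alone.

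Hsp90aa1 and Hsp90ab1 encode the inducible and the constitutive form of cytosolic HSP90, an ATP-driven chaperone that holds kinases, nuclear receptors and other client proteins in a state that can be activated. Co-chaperones such as Cdc37, Stip1, Ahsa1 and the immunophilin Fkbp4 load clients, set the pace of the ATPase cycle or stay bound to mature receptors. TGFb1 binds a receptor pair, Tgfbr2 and Tgfbr1, whose kinase activity phosphorylates Smad2 and Smad3. With Smad4 they raise genes of matrix and contraction that turn a resting fibroblast into a myofibroblast. The receptor kinases of this pathway have been described as HSP90 clients, so the comparison asks which transcripts of TGFb1-treated fibroblasts change with siRNA against the inducible isoform. A single siRNA condition was compared with control siRNA, and no library holds a rescue. Effects of the loss of Hsp90aa1 and effects of the siRNA on other transcripts therefore cannot be told apart in any result below.

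Library totals ranged from 37402932 to 53887400 estimated counts with siCtr and from 36159227 to 51847781 with siHsp90aa1, and mitochondrial genes took 1.93% to 2.81% and 2.15% to 2.46% of them. Replicates differed from each other by far more than counting noise (chi-square per degree of freedom from 24.9 to 63.4). Of 9 fibroblast markers 3 rose and 0 fell, and their summed level ranged from 16200 to 21900 CPM with siCtr and from 16400 to 21900 CPM with siHsp90aa1, with Lum, Thy1 and Fap near 0. Summed markers of other cells were low in the siCtr and siHsp90aa1 libraries: endothelial 0.509 to 0.915 against 1.03 to 1.47 CPM (1 of 4 tested rose, Emcn at 0), immune 5.59 to 7.09 against 5.95 to 7.15 (1 of 2 fell, Lyz2 and Cd3e at 0), pericyte 2.82 to 4.66 against 1.83 to 2.72 (1 of 2 fell, Kcnj8 at 0) and epithelial 0.969 to 1.62 against 0.625 to 0.897 (0 of 3 passed). Skeletal muscle markers were at 0.

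Hsp90aa1 (ENSMUSG00000021270, GRCm38 chromosome 12, 110690605 to 110702728, minus strand), the targeted gene, stood at 671, 606 and 543 CPM, counts scaled to library size, in siCtr replicates 1, 2 and 3, and at 40.2, 65.5 and 120.4 CPM in the siHsp90aa1 replicates in the same order, the order kept for all values below. All 3 knockdown libraries lay under all 3 controls. The remaining level was 5.99%, 10.8% and 22.2% of the control with the same number, so the depth of the knockdown differed between libraries, and the log2 fold change was -3.01 ± 0.32 (SE). Hsp90ab1 stood at 3782, 3448 and 3119.8 CPM against 3173, 3139 and 2925 CPM, groups that overlapped and did not pass (-0.16 ± 0.20, adjusted p = 0.58). On the TPM scale, which corrects for transcript length, the mean of Hsp90ab1 was 2841 in the controls against 525.5 for Hsp90aa1, and with siHsp90aa1 the means were 2475 and 57.0. Trap1, the mitochondrial HSP90, rose, from 79.4, 80.3 and 61.1 to 112, 115 and 99.4 CPM (0.56 ± 0.10, adjusted p = 0.000385), with no overlap. Hsp90b1, the form of the endoplasmic reticulum, stood at 1067, 839.8 and 858 against 763, 814 and 793 CPM without overlap, and did not pass (-0.22 ± 0.14, adjusted p = 0.261). In bulk RNA a change in the number of cells of a kind and a change in RNA per cell cannot be told apart, and this holds for every value below.

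**Figure D1:**
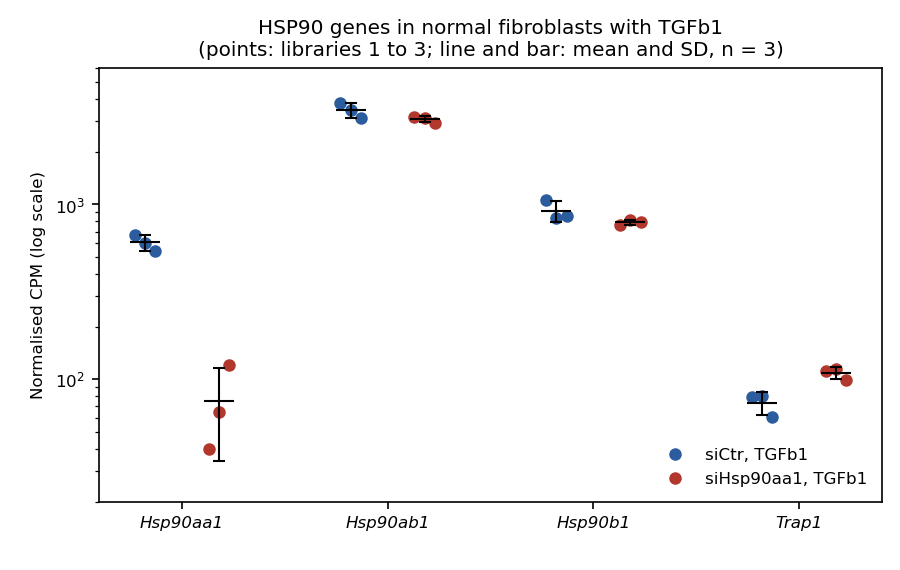
Normalised CPM (log axis) of the 4 HSP90 genes in the 3 siCtr and 3 siHsp90aa1 libraries of NF1 with TGFb1. Points are libraries, and lines with bars are means with SD; Hsp90aa1 fell in all 3 libraries, from 543 to 671 CPM down to 40.2 to 120.4 CPM, while the libraries of Hsp90ab1 overlapped between groups.

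Of 15230 genes tested, 4309 (28.3%) passed at an adjusted p under 0.05 (edgeR quasi-likelihood test), 2247 (14.8%) higher and 2062 (13.5%) lower with siHsp90aa1. This fit had no term for the replicate number. With such a term 5681 genes passed, all of the 4309 among them. Changes over 2-fold were more often rises, with 571 genes (3.75%) higher and 313 (2.06%) lower. The 3 libraries of each group did not overlap for 3680 genes (24.2%) that were higher and 3429 (22.5%) that were lower. Rising genes took 13.9%, 14.8% and 14.2% of the summed CPM in the controls and 21.6%, 20.5% and 19.5% with siHsp90aa1, and falling genes went from 22.97%, 21.96% and 22.37% to 15.5%, 16.6% and 17.0%. These shares describe the genes chosen by the test itself. The median log2 fold change over all genes tested was 0.01.

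**Figure D2:**
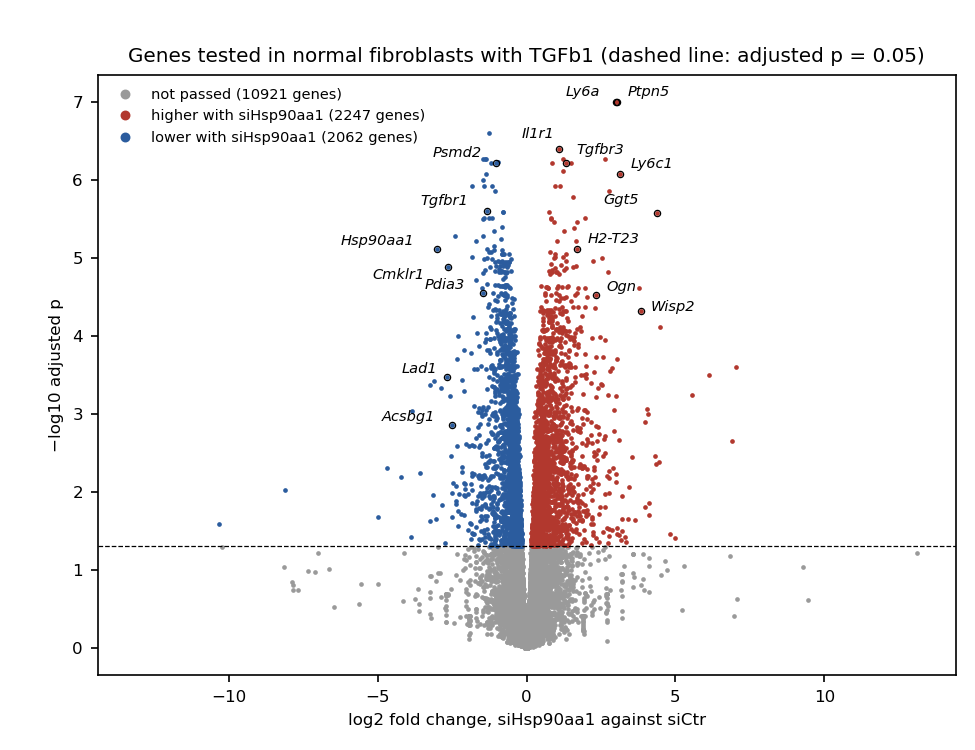
Log2 fold change (x axis) and −log10 adjusted p (y axis) of the 15230 genes tested, siHsp90aa1 against siCtr in NF1 with TGFb1, with 2247 higher genes in red, 2062 lower genes in blue and named genes circled. Among the outermost points on the x axis are genes at 0 in all 3 libraries of a group, whose fitted folds depend on the prior count.

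The largest rises among genes with at least 5 CPM included several genes of low level in the control libraries. Ggt5, a cell surface transferase that cleaves glutathione and leukotriene C4, went from 0.200, 0.418 and 0.392 to 7.89, 6.86 and 6.69 CPM (4.39 ± 0.42, adjusted p = 2.6e-06). Wisp2, a matricellular CCN protein, went from 3.35, 5.69 and 4.97 to 78.6, 57.5 and 63.9 CPM (3.83 ± 0.51, adjusted p = 4.8e-05). In NF1 with vehicle Ggt5 stood at 6.86 ± 2.57 CPM and Wisp2 at 33.2 ± 11.03 CPM (mean ± SD, n = 3), the level of the first close to the knockdown libraries and that of the second under them. Ptpn5, a tyrosine phosphatase, went from 1.02, 1.16 and 0.733 to 10.3, 8.12 and 5.71 CPM (3.03 ± 0.20, adjusted p = 1e-07). Plin4, a lipid droplet coat protein (2.79 ± 0.46, adjusted p = 0.000283), and Mrgprf, an orphan receptor of the Mas family (2.77 ± 0.25), rose too. So did Tmem86a, an enzyme of plasmalogen breakdown (2.64 ± 0.21), and Abi3bp, a matrix protein (2.56 ± 0.41). All these genes were without overlap, as the rule that chose them required. The same rule chose the largest falls and the largest changes in CPM below. Prl2c2, a secreted protein of the prolactin family, went from 44.1, 37.1 and 12.6 to 274, 195 and 122 CPM (2.65 ± 0.40, adjusted p = 0.000115). It has near-identical copies, Prl2c3 among them (2.35 ± 0.48), and reads may have been split between them. The same limit holds for Ly6a and Ly6c1.

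Lad1, Cmklr1 and Acsbg1 were among the largest falls after Hsp90aa1. Lad1, a protein of the basement membrane zone, went from 12.4, 7.11 and 4.68 to 1.25, 1.24 and 1.33 CPM (-2.66 ± 0.45, adjusted p = 0.00034). Cmklr1, the chemerin receptor, went from 7.88, 5.09 and 8.79 to 0.805, 0.909 and 1.82 CPM (-2.64 ± 0.31, adjusted p = 1.3e-05). Acsbg1, which activates long-chain fatty acids, went from 29.1, 26.5 and 25.9 to 4.29, 4.65 and 5.65 CPM (-2.49 ± 0.50, adjusted p = 0.0014). In each of these genes the highest knockdown library lay under the lowest control, which the rule of choice required. Fgf2, a growth factor without a signal peptide, went from 95.7, 68.1 and 60.1 to 14.4, 14 and 16.5 CPM (-2.32 ± 0.51, adjusted p = 0.00263), whereas it stood at 1.93 ± 1.16 CPM with vehicle. Alcam, an adhesion molecule, went from 36.02, 19.5 and 18.1 to 7.73, 5.38 and 4.24 CPM (-2.08 ± 0.54, adjusted p = 0.00802). Tnnt2, the cardiac form of troponin T, went from 54.9, 33.4 and 27.8 to 7.34, 9.49 and 9.27 CPM (-2.15 ± 0.37, adjusted p = 0.000368). Tmem151b, a membrane protein, went from 4.95, 5.27 and 7.04 to 0.986, 1.19 and 1.90 CPM (-2.09 ± 0.37, adjusted p = 0.000514). Sema7a, a membrane-anchored semaphorin, went from 48.9, 29.3 and 31.7 to 8.31, 5.82 and 9.70 CPM (-2.21 ± 0.67, adjusted p = 0.0192) and did not overlap, but Sema7a lost its call without siCtr replicate 1 or siHsp90aa1 replicate 1 or 2 (adjusted p from 0.0606 to 0.0766).

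The 5 largest rises by amount of RNA were those of Eef1a1, Eef2, Rnf213, Aebp1 and Fth1. The elongation factor gene Eef1a1 went from 6566, 7423 and 6662 to 8971, 8798 and 8478 CPM (0.35 ± 0.09, adjusted p = 0.00899). Eef2 went from 3337, 3503 and 3253 to 4819, 4637 and 4466 CPM (0.46 ± 0.09, adjusted p = 0.000953). Rnf213, a large ubiquitin ligase induced by interferon, went from 1880.3, 1935 and 1841 to 3652, 3473 and 3029.8 CPM (0.84 ± 0.15, adjusted p = 0.00052). Aebp1, a collagen-binding protein, went from 2013, 2113 and 2143 to 2816, 2887 and 3023 CPM (0.48 ± 0.10, adjusted p = 0.00252). All 4 were without overlap, again by the rule of choice. Fth1, the ferritin heavy chain, went from 1980.1, 1807 and 1452 to 2919, 2204 and 2367 CPM (0.52 ± 0.19, adjusted p = 0.0472), and Fth1 lost its call without siCtr replicate 1 or 2 or 3 or siHsp90aa1 replicate 1 or 3 (adjusted p from 0.0508 to 0.198). Eef1a1 and Fth1 have processed copies in the genome that can share reads. The 5 largest falls by amount were those of Myh9, Tnc, Scd2, Col5a3 and Flna. Myh9, the non-muscle myosin heavy chain, went from 4252, 3923 and 4253 to 2779.9, 3028 and 3311 CPM (-0.45 ± 0.12, adjusted p = 0.00851). Tnc, a matrix glycoprotein, went from 1624, 1182 and 2003 to 582, 630.1 and 979.9 CPM (-1.13 ± 0.27, adjusted p = 0.004). Scd2, a desaturase, went from 1230.1, 1213 and 1595 to 464, 578 and 891 CPM (-1.06 ± 0.19, adjusted p = 0.000508). These 3 stood apart, which the rule of choice required of all 5. Col5a3, a collagen chain, went from 1506, 1343 and 1739 to 605, 638 and 1012 CPM (-1.03 ± 0.36, adjusted p = 0.0406), and Col5a3 lost its call without siCtr replicate 1 or 2 or 3 or siHsp90aa1 replicate 1 or 2 (adjusted p from 0.0542 to 0.145). Flna, an actin crosslinker, went from 2958, 3421 and 3625 to 2245, 2765 and 2931 CPM (-0.33 ± 0.12, adjusted p = 0.0481) without overlap, but Flna lost its call without siCtr replicate 2 or 3 or siHsp90aa1 replicate 1 or 2 (adjusted p from 0.0731 to 0.226), and with RLE size factors (0.0518) and no filter on low counts (0.0673) and only the libraries compared (0.0615).

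Gene groups were followed with 38 lists of 904 genes. The share of genes that rose was above the background of 14.8% by the widest margin in the lists of MHC class I and interferon-induced GTPases (20 of 21 tested) and interferon-stimulated genes (21 of 35), followed by the BMP pathway and Id genes (7 of 16), interferon ligands, receptors and sensors (10 of 23), and chemokines, cytokines and NF-kB genes (12 of 29). The share that fell was above the background of 13.5% by the widest margin for TGFb receptors and SMADs (15 of 26), the proteasome (17 of 31) and TGFb target genes (12 of 24). Such counts describe these lists and were not tested against other genes. The same backgrounds apply to every list count below. Both shares lay near or under them for proteases and inhibitors, heat shock genes, cholesterol synthesis, collagen chains and mitosis. The same held for endoplasmic reticulum chaperones and the integrated stress response.

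**Figure D3:**
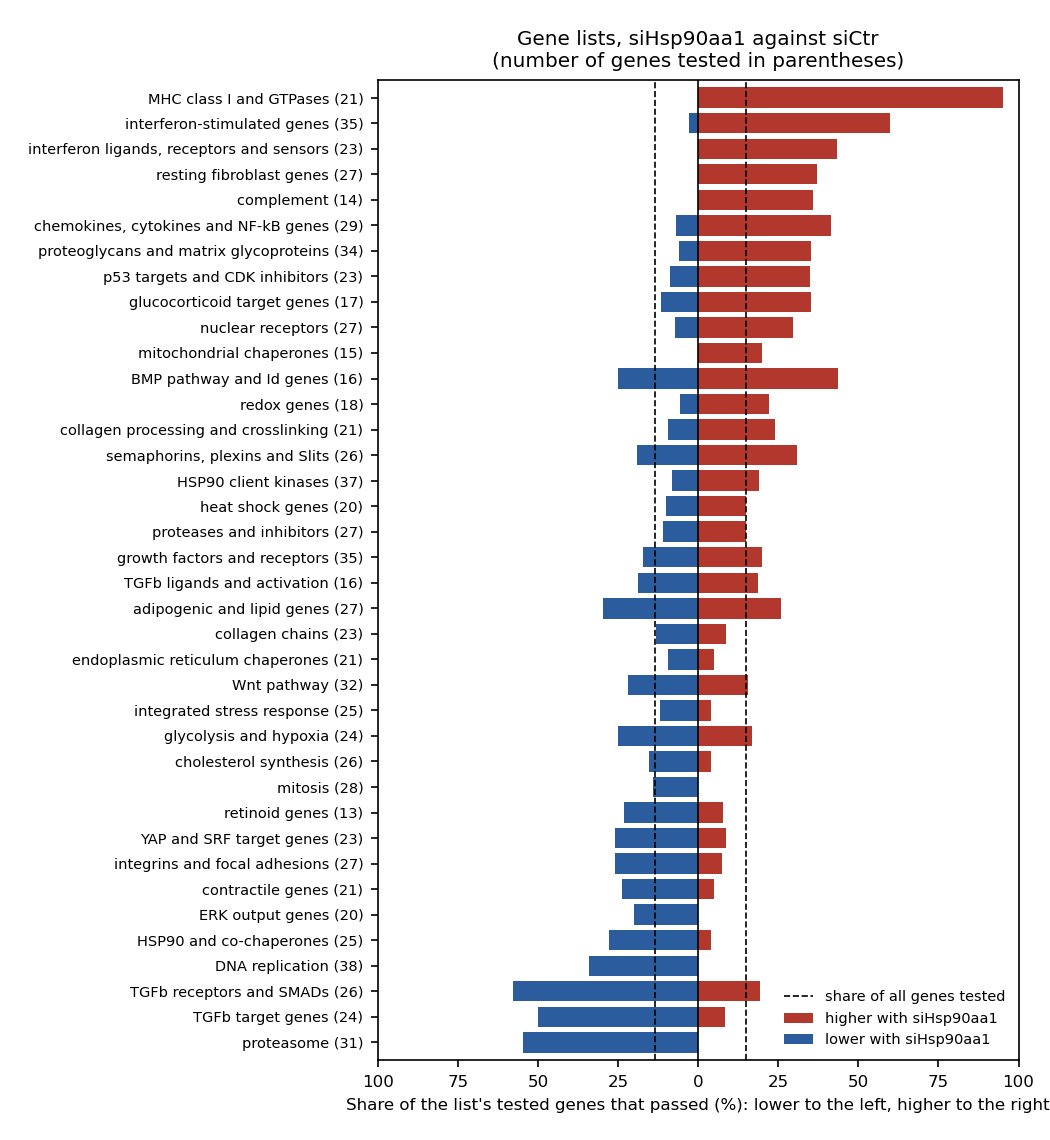
Share of each list's tested genes that passed higher (right, red) or lower (left, blue) with siHsp90aa1, with the number of genes tested in parentheses and dashed lines at the share of all genes tested, 14.8% higher and 13.5% lower. The lists of MHC class I and of interferon-stimulated genes stand at the top, and those of the proteasome, TGFb targets and TGFb receptors at the bottom.

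Within the TGFb pathway the ligand genes Tgfb1 and Inhba fell, and the receptor genes moved in both directions. Tgfb1 itself went from 202, 179.6 and 213 to 70.6, 78.1 and 115 CPM (-1.18 ± 0.17, adjusted p = 8.2e-05), without overlap, and stood at 59.7 ± 6.09 CPM with vehicle. Tgfb2 (-0.22 ± 0.31, adjusted p = 0.638) and Tgfb3 (0.03 ± 0.14, adjusted p = 0.917) did not pass, although Tgfb2 did with the replicate block and only the libraries compared (adjusted p = 0.0315). The replicate block is a fit in which the replicate number, a batch per the labels, is a further term. Inhba, the subunit of activin A, went from 88.4, 67.96 and 60.8 to 14.99, 17.6 and 19.6 CPM (-2.06 ± 0.57, adjusted p = 0.0115), and Inhba lost its call without siHsp90aa1 replicate 1 (adjusted p = 0.0515). Of the 16 tested genes of ligands and their activation 3 rose and 3 fell (median 0.08). The rises were Inhbb, another activin subunit, at a low level (1.41 ± 0.51, adjusted p = 0.0483), and Ltbp1 (0.75 ± 0.24, adjusted p = 0.0251) and Ltbp3 (0.18 ± 0.07, adjusted p = 0.0497), whose proteins bind latent TGFb in the matrix. Ltbp3 was named after its value was seen. Inhbb lost its call without siCtr replicate 1 or 2 or 3 or siHsp90aa1 replicate 1 or 2 (adjusted p from 0.0579 to 0.227). Ltbp1 lost its call without siCtr replicate 2 or 3 or siHsp90aa1 replicate 1 or 2 (adjusted p from 0.0594 to 0.124). The 3 rises became 0 without siCtr replicate 2 or 3 or siHsp90aa1 replicate 1 and 1 without siCtr replicate 1 or siHsp90aa1 replicate 2.

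Tgfbr1, the type I receptor kinase, went from 36.2, 37.6 and 38.8 to 11.9, 14.6 and 18.8 CPM (-1.32 ± 0.13, adjusted p = 2.6e-06). Tgfbr2, the type II receptor kinase, went the other way, from 62.2, 70.7 and 74.95 to 144, 137 and 136 CPM (1.00 ± 0.14, adjusted p = 8.4e-05). The co-receptor gene Tgfbr3 likewise went from 120.1, 138 and 125 to 357, 327 and 279.7 CPM (1.33 ± 0.11, adjusted p = 6.1e-07). None of the 3 receptor genes overlapped between groups. With vehicle they stood at 36.4 ± 2.12, 109 ± 21.3 and 359 ± 37.2 CPM, so Tgfbr1 with siHsp90aa1 lay under its level in cells without TGFb1, while Tgfbr3 came near that level. Acvr1, a type I receptor of activins and BMPs, fell (61.7, 61.4 and 73.4 to 34.7, 38.96 and 51.9 CPM, -0.65 ± 0.11, adjusted p = 0.000401). The signal carrier Smad2 fell (46.6, 44.4 and 44.4 to 29.9, 34.5 and 35.8 CPM, -0.43 ± 0.07, adjusted p = 0.000194). The shared partner Smad4 fell by less (-0.24 ± 0.06, adjusted p = 0.00638), and Smad3 did not pass (0.29 ± 0.12, adjusted p = 0.0752). Smad3 passed with the replicate block (adjusted p = 0.0412), without siCtr replicate 3 (adjusted p = 0.0478) and without siHsp90aa1 replicate 2 (adjusted p = 0.0408). Smad7, the inhibitory SMAD that the pathway itself induces, went from 64.3, 62.8 and 54.3 to 37.3, 35.6 and 29.6 CPM (-0.82 ± 0.21, adjusted p = 0.00766). In all, 15 of 26 receptor and SMAD genes fell and 5 rose (median -0.42 against 0.01 over all genes). The 5 rises became 2 without siCtr replicate 1 and 3 without siCtr replicate 2 or siHsp90aa1 replicate 1.

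**Figure D4:**
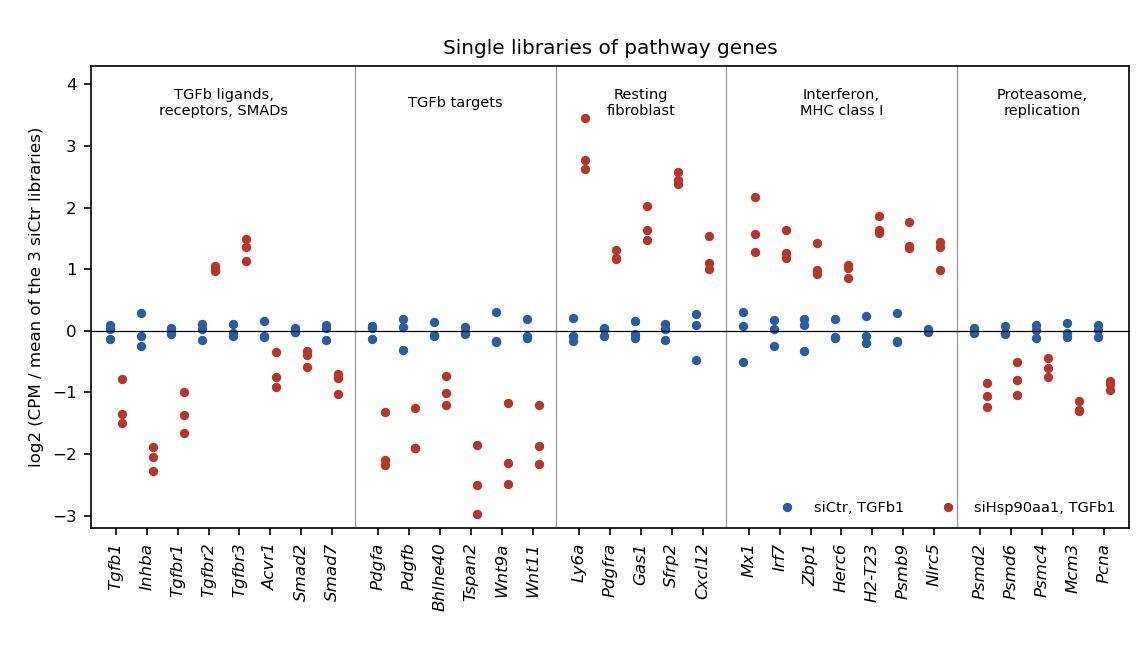
Level of single genes in each library as log2 of its CPM over the mean of the 3 siCtr libraries (y axis), with siCtr in blue and siHsp90aa1 in red. Tgfbr1 lies below and Tgfbr2 and Tgfbr3 lie above the controls in all 3 knockdown libraries, and the genes of resting fibroblasts and interferon lie above.

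Downstream of the receptors, 12 of 24 TGFb target genes fell and 2 rose, with a median of -0.69. With TGFb1 against vehicle, a comparison that shares the siCtr libraries, 21 of the 24 rose and 1 fell. The list was chosen with earlier results of these data known, and genes that are high in shared controls are favoured to fall against them. In the pairs of the same number the list's medians were -0.72, -0.70 and -0.60. Pdgfa, a platelet-derived growth factor chain, went from 93.2, 80.3 and 90.4 to 19.5, 20.5 and 35.3 CPM (-1.82 ± 0.20, adjusted p = 9.8e-06). Pdgfb went from 45.9, 41.7 and 32.3 to 10.7, 10.7 and 16.7 CPM (-1.66 ± 0.27, adjusted p = 0.000265). The transcriptional repressor gene Bhlhe40 went from 205, 174 and 177 to 91.8, 80.7 and 111 CPM (-0.97 ± 0.12, adjusted p = 2.2e-05). Knockdown and control libraries did not overlap in any of them. Tspan2, a tetraspanin (-2.39 ± 0.25, adjusted p = 5.2e-06), and the Wnt ligand genes Wnt9a (-1.86 ± 0.29, adjusted p = 0.000166) and Wnt11 (-1.70 ± 0.36, adjusted p = 0.00206) fell at low levels. The widely used target Ctgf did not pass. Ctgf stood at 164, 117 and 83.6 against 41.4, 41.9 and 39.5 CPM (-1.57 ± 0.68, adjusted p = 0.0958). Its groups did not overlap, and Ctgf passed with only the libraries compared (adjusted p = 0.0012) and with the replicate block (adjusted p = 0.0252). Cdkn2b, a CDK inhibitor, rose (30.3, 28.3 and 32.6 to 53.98, 43.9 and 55.01 CPM, 0.75 ± 0.12, adjusted p = 0.000208).

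The Id genes, targets of BMP signalling that encode inhibitors of basic helix-loop-helix factors, rose in 3 of 4 cases, and Id1 did not pass (0.06 ± 0.17, adjusted p = 0.832). Among genes that carry BMP signals, Bmpr1a (-0.54 ± 0.10, adjusted p = 0.000629), Bmpr2 (-0.39 ± 0.11, adjusted p = 0.0137), Smad1 (-0.333 ± 0.115, adjusted p = 0.038) and Smad5 (-0.44 ± 0.09, adjusted p = 0.00121) fell. Smad9 rose (0.86 ± 0.30, adjusted p = 0.0396). Id1 and these genes were named after their values were seen. Id2 went from 5.82, 8.06 and 6.51 to 17.2, 20.1 and 13.9 CPM (1.33 ± 0.19, adjusted p = 8.7e-05). Id3 went from 17.9, 34.1 and 21.2 to 60.1, 63.7 and 48.6 CPM (1.23 ± 0.24, adjusted p = 0.00112), and Id4 rose at a low level (1.01 ± 0.19, adjusted p = 0.000953). Bmper, a secreted BMP binder, fell (6.82, 9.04 and 8.40 to 2.49, 3.00 and 3.70 CPM, -1.40 ± 0.16, adjusted p = 1.4e-05), as did Fstl3, a binder of activin (-0.40 ± 0.10, adjusted p = 0.00554). The BMP and Id list had 7 of 16 genes higher and 4 lower (median 0.27), with rises of 3 without siHsp90aa1 replicate 2 and 4 without siCtr replicate 1 or 3 or siHsp90aa1 replicate 1 and falls of 2 without siCtr replicate 1 or siHsp90aa1 replicate 1. Some of these genes were near 0, such as Nog among the rises (0.0666 to 1.14 CPM) and Bmpr1b among the falls (0.0201 to 0.4 CPM).

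Contractile genes are the hallmark of myofibroblasts. Acta2, smooth muscle actin, stood at 784, 978 and 1094 against 453, 719 and 887 CPM, groups that overlapped and did not pass (-0.47 ± 0.20, adjusted p = 0.0815), although TGFb1 had raised it (125 ± 14.7 CPM with vehicle). Acta2 passed with the replicate block (adjusted p = 0.033) and without siHsp90aa1 replicate 3 (adjusted p = 0.0172). Tagln, an actin-binding protein of smooth muscle, fell (131, 128 and 151 to 54.8, 76.97 and 90.9 CPM, -0.88 ± 0.18, adjusted p = 0.00174), with no overlap, and Tnnt2 fell as described. Of 21 contractile genes 5 fell and 1 rose (median -0.33), the rise being Lmod1 at a very low level (0.0888 to 0.593 CPM). That count depended on single libraries: the falls were 2 without siHsp90aa1 replicate 1 and 3 without siCtr replicate 2 or 3 or siHsp90aa1 replicate 2 and 9 without siHsp90aa1 replicate 3, the rise was 0 without siCtr replicate 1 or 2 or siHsp90aa1 replicate 2 or 3 and 2 without siCtr replicate 3, and with the replicate block 10 fell and 2 rose.

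Among integrins and adhesion proteins 7 of 27 fell and 2 rose. Itgb3, the beta 3 integrin chain, went from 93.1, 85.96 and 97.6 to 29.6, 33.7 and 44.8 CPM (-1.36 ± 0.20, adjusted p = 9.2e-05). Itga5, the fibronectin receptor chain, went from 1189.6, 1242 and 1242 to 711, 757 and 863 CPM (-0.66 ± 0.12, adjusted p = 0.000822). The adaptor gene Pxn went from 172, 155 and 169 to 124, 108 and 134 CPM (-0.44 ± 0.08, adjusted p = 0.00074). Control and knockdown libraries stood apart in all 3. Itgb7, a leukocyte integrin chain, rose at a low level (1.13, 1.55 and 0.759 to 7.58, 5.51 and 2.64 CPM, 2.18 ± 0.44, adjusted p = 0.00128), and the adaptor gene Lims1 rose from 118, 125 and 125 to 161, 164 and 153 CPM (0.38 ± 0.07, adjusted p = 0.000538). The falls became 4 without siCtr replicate 1 or siHsp90aa1 replicate 1.

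YAP and SRF are transcription regulators that respond to tension and to actin. Their list had 6 of 23 genes lower and 2 higher (median -0.31), the rises being 1 without siCtr replicate 1 or 2 or siHsp90aa1 replicate 1 or 3. Wwtr1, which encodes the YAP partner TAZ, went from 165, 136 and 159 to 77.8, 76.1 and 97.5 CPM (-0.87 ± 0.13, adjusted p = 0.000115). Yap1 went from 185, 189 and 195 to 127, 137 and 155 CPM (-0.44 ± 0.10, adjusted p = 0.00308). Cotl1, an actin-binding protein, went from 288, 294 and 354 to 100, 122 and 178 CPM (-1.22 ± 0.18, adjusted p = 0.000112). All these groups stood apart. Amotl1, a binder of YAP (-0.50 ± 0.09, adjusted p = 0.000377), and Pdlim7, an actin-associated scaffold (-0.50 ± 0.09, adjusted p = 0.000596), also fell, whereas F3, tissue factor, rose (0.90 ± 0.13, adjusted p = 9.2e-05).

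Col1a1, Col1a2 and Col3a1, which encode the main fibrillar collagens, did not pass. Col1a1 stood at 8144, 9117 and 11449 against 6806, 7239 and 10169.7 CPM (-0.25 ± 0.16, adjusted p = 0.259), Col1a2 at 0.15 ± 0.18 and Col3a1 at 0.29 ± 0.30 on the log2 scale, with overlap between groups in all 3 (adjusted p = 0.259, 0.58 and 0.5). Col1a1 passed with the replicate block (adjusted p = 0.0294) and without siHsp90aa1 replicate 3 (adjusted p = 0.0386). Col3a1 passed with the replicate block and only the libraries compared (adjusted p = 0.028). Postn, a matricellular protein, stood at 2631, 2887 and 3672 against 2422, 2865 and 4285 CPM (0.06 ± 0.45, adjusted p = 0.95). Col7a1, the collagen of anchoring fibrils, fell (49.6, 28.9 and 42.5 to 12.7, 11.2 and 13.9 CPM, -1.68 ± 0.20, adjusted p = 1.9e-05), with no overlap. Of 23 collagen chains 3 fell and 2 rose (median 0.10), with falls of 1 without siCtr replicate 3 or siHsp90aa1 replicate 1 and 6 without siHsp90aa1 replicate 3, rises of 1 without siCtr replicate 1 or 2 or 3 or siHsp90aa1 replicate 3, and 6 falls and 4 rises with the replicate block. Among the rises of the collagen chains Col4a6 was at a very low level (0.0523 to 0.272 CPM). Of 21 genes of collagen processing and crosslinking 5 rose and 2 fell. Loxl3, a lysyl oxidase, rose (96.9, 88.9 and 105 to 188, 158 and 155 CPM, 0.78 ± 0.12, adjusted p = 0.0002), Pcolce2, an enhancer of procollagen cleavage, fell (-0.97 ± 0.21, adjusted p = 0.00221), and Lox did not pass (-0.16 ± 0.14, adjusted p = 0.402). The rises of that list were 2 without siCtr replicate 1 or 2 or siHsp90aa1 replicate 1 and 3 without siHsp90aa1 replicate 3 and the falls 1 without siHsp90aa1 replicate 1 or 2.

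Of 34 genes of small proteoglycans and matrix glycoproteins 12 rose and 2 fell (median 0.23). Among the rises Prelp (0.0523 to 0.571 CPM), Omd (0.0523 to 0.435 CPM) and Aspn (0.236 to 2.07 CPM) were at very low levels. Ogn, a small leucine-rich proteoglycan, went from 5.15, 4.60 and 6.17 to 28.3, 24.6 and 27.3 CPM (2.34 ± 0.30, adjusted p = 3e-05). The anti-angiogenic thrombospondin gene Thbs2 went from 236, 249.7 and 143 to 915, 655 and 358 CPM (1.62 ± 0.27, adjusted p = 0.000336). Tnxb, a tenascin of elastic tissue, went from 14.5, 17.9 and 16.9 to 41.2, 32.9 and 28.1 CPM (1.05 ± 0.24, adjusted p = 0.00305). The lowest knockdown library lay above the highest control in each. Prg4, lubricin, fell (43.2, 26.1 and 41.3 to 11.3, 11.9 and 20.1 CPM, -1.35 ± 0.29, adjusted p = 0.0024), and Fn1, fibronectin, did not pass (-0.15 ± 0.12, adjusted p = 0.381). The 12 rises became 6 without siCtr replicate 2 and 7 without siCtr replicate 1 or siHsp90aa1 replicate 3.

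Of 27 proteases and inhibitors 4 rose and 3 fell, shares near or under the 14.8% and 13.5% of all genes tested. Plat, tissue plasminogen activator, rose (98.97, 96.6 and 119 to 197, 163 and 166 CPM, 0.74 ± 0.11, adjusted p = 0.000108), as did the aggrecanase gene Adamts5 (9.93, 13.2 and 20.9 to 28.99, 30.5 and 41.5 CPM, 1.20 ± 0.28, adjusted p = 0.00425) and the metalloproteinase gene Mmp19 (0.70 ± 0.16, adjusted p = 0.00343). Timp3, a matrix-bound inhibitor of metalloproteinases, fell (1005, 974 and 965 to 462, 506 and 669.5 CPM, -0.85 ± 0.21, adjusted p = 0.00632). All 4 stood apart. The falls became 1 without siCtr replicate 1 or 3 or siHsp90aa1 replicate 1 or 2 and 5 without siHsp90aa1 replicate 3, and 8 rose and 6 fell with the replicate block.

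Genes typical of resting, progenitor-like fibroblasts rose in 10 of 27 cases and fell in 0 (median 0.92), and 17 did not pass. Among those 17 were Pi16 (-0.28 ± 0.51, adjusted p = 0.729), Col15a1 (0.10 ± 0.49, adjusted p = 0.909) and Dpt (0.86 ± 0.45, adjusted p = 0.163). Penk (-1.12 ± 0.70, adjusted p = 0.253) and Cd34, both at very low levels, did not pass either. These 5 were named after their values were seen. With TGFb1 against vehicle, a comparison that shares the siCtr libraries, 13 of the 27 genes fell and 0 rose, and genes that are low in shared controls are favoured to rise against them. Ly6a, a surface protein also called Sca-1, went from 25.6, 31.4 and 24.2 to 298, 186 and 168 CPM (3.00 ± 0.20, adjusted p = 1e-07). Ly6c1 went from 5.80, 6.24 and 5.05 to 74.9, 40.2 and 36.9 CPM (3.15 ± 0.27, adjusted p = 8.5e-07). Pdgfra, a receptor of platelet-derived growth factor, went from 268, 249 and 273 to 655, 591 and 596 CPM (1.22 ± 0.14, adjusted p = 9.8e-06), its ligand gene Pdgfa having fallen. These 3 stood apart from the controls, which the rule for the largest rises required of Ly6a and Ly6c1. Gas1, a surface protein of growth-arrested cells, went from 98.7, 103 and 119.6 to 438, 298 and 335 CPM (1.74 ± 0.23, adjusted p = 4.3e-05). Sfrp2, a secreted Wnt modulator, went from 22.4, 25.4 and 26.7 to 148, 129 and 136 CPM (2.47 ± 0.36, adjusted p = 0.000104). The chemokine gene Cxcl12 went from 37.7, 56.2 and 63.3 to 105, 113 and 152 CPM (1.23 ± 0.23, adjusted p = 0.000651). All were without overlap. Levels with vehicle were 214 ± 16.6 CPM for Ly6a, 764 ± 146 for Pdgfra, 496 ± 146 for Gas1 and 267 ± 82.01 for Sfrp2, so the knockdown libraries lay near the vehicle mean for Ly6a and under it for Gas1 and Sfrp2.

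Of 27 adipogenic and lipid genes 7 rose and 8 fell. Pparg, the regulator of adipogenesis, rose at a low level (2.53, 2.27 and 1.73 to 5.81, 6.30 and 4.43 CPM, 1.34 ± 0.30, adjusted p = 0.00279). Acsl1, which activates fatty acids, rose from 18.9, 20.9 and 18.6 to 25.3, 29.8 and 30.03 CPM (0.54 ± 0.09, adjusted p = 0.000426), and the droplet coat gene Plin3 rose too (0.68 ± 0.12, adjusted p = 0.000617). Acaca, Fasn and Scd2, enzymes that make and desaturate fatty acids, fell, whereas Acly (0.05 ± 0.06, adjusted p = 0.579) and Scd1 (-0.45 ± 0.20, adjusted p = 0.0951), named after their values were seen, did not pass. Acaca went from 247, 253 and 252 to 192, 202 and 211 CPM (-0.31 ± 0.06, adjusted p = 0.00102). Fasn went from 509, 550.3 and 556 to 387, 410.1 and 403 CPM (-0.43 ± 0.11, adjusted p = 0.00745), and Scd2 is given above. Control and knockdown groups stood apart in Pparg, Acsl1, Acaca, Fasn and Scd2, in Scd2 by the rule that chose it. In cholesterol synthesis 4 of 26 genes fell and 1 rose (2 rose with the replicate block). The share that fell was near the 13.5% of all genes tested. The list had falls of 1 without siHsp90aa1 replicate 1 and 2 without siCtr replicate 1 or 3 or siHsp90aa1 replicate 2 and rises of 2 without siCtr replicate 3. Of 13 retinoid genes 3 fell and 1 rose. Rdh10 (-0.66 ± 0.11, adjusted p = 0.000371) and Aldh1a3 (-1.27 ± 0.29, adjusted p = 0.00338), enzymes that make retinoic acid, fell. Dhrs3, which works against them, rose from 1.73, 1.64 and 1.23 to 7.54, 5.43 and 4.54 CPM (1.93 ± 0.37, adjusted p = 0.000905).

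In the Wnt pathway 7 of 32 genes fell and 5 rose. Wnt5a, a ligand of the pathway that does not use beta-catenin, went from 29.2, 30.9 and 34.8 to 10.5, 11.3 and 16.1 CPM (-1.33 ± 0.14, adjusted p = 7.8e-06), without overlap, and the other leading members, Wisp2, Sfrp2, Wnt9a and Wnt11, are described above. The falls became 4 without siHsp90aa1 replicate 1 and the rises 3 without siCtr replicate 1 or siHsp90aa1 replicate 2.

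Genes of the interferon response were followed with 3 lists. Type I interferon binds the receptor chains Ifnar1 and Ifnar2, whose kinases Jak1 and Tyk2 activate a complex that includes Stat2 and Irf9 and binds the interferon-stimulated response element in promoters. The core of that element, GAAA, any 2 bases and GAAA (TTTC, any 2 bases and TTTC on the other strand), was searched on both strands from 250 bases before to 50 bases after each gene's start in RefSeq promoters of GRCm38.p6. It was found in 14 of the 26 interferon-stimulated genes with a promoter in the table (53.8%) and in 10 of 18 genes of the MHC class I and GTPase list (55.6%), against 3.99% of all 27025 genes. The following stretches of 80 bases hold it in 6 genes that rose, written 5′ to 3′ on the strand of the gene with the element in capitals, to show the sequence that these genes share.
Stat2 (chr10:128270248-128270327, plus strand): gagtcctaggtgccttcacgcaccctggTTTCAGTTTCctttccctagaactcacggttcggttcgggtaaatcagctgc
Ifit3 (chr19:34583355-34583434, plus strand): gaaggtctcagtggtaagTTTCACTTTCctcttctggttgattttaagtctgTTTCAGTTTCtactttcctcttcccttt
Cxcl10 (chr5:92349058-92349137, minus strand): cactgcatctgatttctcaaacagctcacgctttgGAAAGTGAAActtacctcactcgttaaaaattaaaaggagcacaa
Oas3 (chr5:120777690-120777769, minus strand): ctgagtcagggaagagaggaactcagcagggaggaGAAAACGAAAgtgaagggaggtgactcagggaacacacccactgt
B2m (chr2:122147513-122147592, plus strand): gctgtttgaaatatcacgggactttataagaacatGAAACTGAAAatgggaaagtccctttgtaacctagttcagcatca
Gbp2 (chr3:142620569-142620648, plus strand): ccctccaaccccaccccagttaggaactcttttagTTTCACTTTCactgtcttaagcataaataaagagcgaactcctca
The element lay 222 bases before the start in Stat2, 213 in Cxcl10, 139 in B2m, 75 in Oas3 and 59 in Gbp2, and Ifit3 held 2 copies, the farther at 156 bases. Among the 393 tested genes with the core in their promoter 117 rose (29.8%) and 37 fell (9.41%), and among 10033 without it 1585 rose (15.8%) and 1484 fell (14.8%). Outside the 3 interferon lists the shares with the core were 26.5% and 10.1% of 366 genes. A match describes the letters and not a bound site, and Ifit3, Oas3 and Gbp2 were chosen for the print after their values were seen. Irf7, Tap1, Psmb9 and H2-K1, which rose too, held no match, and Mx1, Zbp1 and Nlrc5 had no promoter to search.

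Mx1, an antiviral GTPase, went from 33.1, 28.2 and 18.9 to 119.5, 79.5 and 64.9 CPM (1.72 ± 0.21, adjusted p = 2.4e-05). Irf7, a transcription factor that amplifies interferon genes, went from 86.2, 95.5 and 71.5 to 264, 203 and 191 CPM (1.38 ± 0.27, adjusted p = 0.00103). Zbp1, a sensor of Z-form nucleic acid, went from 53.3, 49.7 and 37.1 to 126, 92.3 and 88.96 CPM (1.13 ± 0.22, adjusted p = 0.00114). The lowest knockdown library exceeded the highest control in each. The chemokine gene Cxcl10 went from 346, 299 and 143 to 1023, 688 and 484 CPM (1.48 ± 0.30, adjusted p = 0.00133), with a wide spread among controls. Stat2 went from 210.3, 177 and 147 to 359, 299 and 269 CPM (0.79 ± 0.18, adjusted p = 0.00396). Irf9 went from 99.5, 94.1 and 91.5 to 136, 127 and 122 CPM (0.43 ± 0.11, adjusted p = 0.00891). Isg15, a ubiquitin-like protein, stood at 230.3, 217 and 212 against 363, 314 and 328 CPM and did not pass (0.61 ± 0.35, adjusted p = 0.209), although its groups did not overlap. Isg15 passed with only the libraries compared (adjusted p = 0.00113) and with the replicate block and only the libraries compared (adjusted p = 0.000107). In all 21 of 35 interferon-stimulated genes rose and 1 fell (median 0.87), and the medians in the numbered pairs were 0.88, 0.69 and 0.77. The fall became 0 without siCtr replicate 1 or 2 or siHsp90aa1 replicate 1 or 2 or 3, and the rises were 14 to 22 with 1 library left out.

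Upstream, 10 of 23 genes of interferon ligands, receptors and sensors rose and 0 fell (1 with the replicate block). Ifnb1, the interferon beta gene, went from 0.0888, 0.236 and 0.131 to 1.07, 0.983 and 0.381 CPM (2.38 ± 0.45, adjusted p = 0.00225), a rise at a very low level. The receptor chain genes Ifnar1 (-0.08 ± 0.06, adjusted p = 0.357) and Ifnar2 (0.07 ± 0.08, adjusted p = 0.537) did not pass, whereas the kinase gene Tyk2 rose (26.5, 30.04 and 28.4 to 40.5, 39.8 and 38.2 CPM, 0.48 ± 0.08, adjusted p = 0.000345). Socs1, a feedback inhibitor of these kinases, rose from 14.97, 18.3 and 12.4 to 51.97, 29.8 and 26.2 CPM (1.24 ± 0.24, adjusted p = 0.00107). Irf5, a factor downstream of Toll-like receptors, went from 40.7, 43.4 and 24.2 to 94.9, 85.9 and 57.5 CPM (1.14 ± 0.26, adjusted p = 0.00338).

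Of 21 genes of antigen presentation on MHC class I and interferon-induced GTPases 20 rose and 0 fell (median 0.89). With 1 library left out 14 to 17 of them rose. H2-T23, a non-classical class I molecule, went from 7.46, 10.1 and 8.11 to 31.3, 25.6 and 26.6 CPM (1.70 ± 0.18, adjusted p = 7.8e-06). B2m, the light chain, went from 973, 852 and 824 to 1543, 1281 and 1291 CPM (0.64 ± 0.15, adjusted p = 0.00367). The peptide transporter gene Tap1 went from 115, 122 and 112 to 271, 236 and 236 CPM (1.09 ± 0.24, adjusted p = 0.00274). Nlrc5, the transactivator of class I genes, went from 45.2, 45.99 and 44.4 to 123, 116 and 89.7 CPM (1.28 ± 0.23, adjusted p = 0.000569). The immunoproteasome genes Psmb9 (8.70, 11.98 and 8.58 to 33.2, 25.5 and 24.7 CPM, 1.51 ± 0.28, adjusted p = 0.000815) and Psmb10 (70.1, 73.9 and 61.1 to 142, 121 and 111 CPM, 0.86 ± 0.12, adjusted p = 6.1e-05) rose, while 17 of 31 genes of the standard proteasome fell. No group overlapped in any of these genes. H2-K1, a classical heavy chain, had the smallest rise of the 20 (0.35 ± 0.13, adjusted p = 0.0487), and H2-K1 lost its call without siCtr replicate 1 or 2 or 3 or siHsp90aa1 replicate 1 or 2 or 3 (adjusted p from 0.0539 to 0.204), and with no filter on low counts (0.0589). Genes of the H2, Gbp, Oas and Ifit families have near-identical copies, so single members are uncertain.

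Of 29 genes of chemokines, cytokines and NF-kB signalling 12 rose and 2 fell (median 0.46). Il1r1, the interleukin-1 receptor, went from 40.6, 40.3 and 44.8 to 96.6, 87.8 and 81.6 CPM (1.08 ± 0.08, adjusted p = 4e-07). The leukocyte adhesion molecule Vcam1 went from 114, 101.7 and 107 to 243, 227 and 233 CPM (1.12 ± 0.10, adjusted p = 1.2e-06). Cxcl5, a neutrophil chemokine, went from 38.4, 62.9 and 66.03 to 199.9, 192 and 203 CPM (1.83 ± 0.31, adjusted p = 0.00032). Cxcl1, of the same kind, went from 22.1, 16.2 and 16.5 to 43.1, 30.7 and 34.9 CPM (0.99 ± 0.20, adjusted p = 0.0016). All 4 stood apart from the controls. Ccl2 (0.41 ± 0.25, adjusted p = 0.238) and Il6 (-0.44 ± 0.42, adjusted p = 0.466) did not pass, although Ccl2 did with the replicate block (adjusted p = 0.0109), and Il6 did with the replicate block and only the libraries compared (adjusted p = 0.00937). The falls became 1 without siCtr replicate 1 or 2 or siHsp90aa1 replicate 1 or 2, and 6 with the replicate block. Of 14 complement genes 5 rose and 0 fell (median 0.66). They were C1ra (63.6, 78.3 and 71.2 to 182, 181 and 194 CPM, 1.38 ± 0.17, adjusted p = 2.3e-05) and C1s1 (32.3, 47.05 and 41.3 to 94.9, 101.2 and 114 CPM, 1.36 ± 0.23, adjusted p = 0.000283), proteases that start the classical pathway, C1rl (1.70 ± 0.21, adjusted p = 2.8e-05), C4b (2.33 ± 0.53, adjusted p = 0.00325) and Masp1 (1.54 ± 0.41, adjusted p = 0.00889). C3 stood at 559, 568 and 659.9 against 907, 874 and 1149.9 CPM without overlap and did not pass (0.71 ± 0.27, adjusted p = 0.057). C3 passed with only the libraries compared (adjusted p = 0.00309) and with the replicate block (adjusted p = 0.0175). It also passed with DESeq2 (adjusted p = 0.0314) and with no filter on low counts (adjusted p = 0.0457).

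Of 35 genes of growth factors and their receptors 7 rose (11 with the replicate block) and 6 fell. Fgf10 rose (3.55, 5.20 and 5.31 to 16.8, 14.3 and 11.7 CPM, 1.61 ± 0.16, adjusted p = 4.1e-06) while Fgf2 fell. Vegfa, the angiogenic growth factor, fell from 710, 551 and 522 to 343, 292 and 316 CPM (-0.91 ± 0.23, adjusted p = 0.00622). Hgf (0.20 ± 0.22, adjusted p = 0.541) and Igf1 (0.92 ± 0.58, adjusted p = 0.257) did not pass, although Igf1 did with the replicate block (adjusted p = 0.0159), and Hgf did with the replicate block and only the libraries compared (adjusted p = 0.0454). Output genes of the ERK cascade, which growth factor receptors feed, fell in 4 of 20 cases with 0 higher (9 and 2 with the replicate block). They were the ETS factor genes Etv5 (35.3, 26.8 and 29.01 to 13.3, 11.1 and 11.6 CPM, -1.34 ± 0.32, adjusted p = 0.00478) and Etv4 (93.2, 80.4 and 69.9 to 39.6, 33.7 and 29.5 CPM, -1.24 ± 0.34, adjusted p = 0.0114). The others were the inhibitor gene Spred2 (149.9, 119 and 121 to 61.3, 63.04 and 68.7 CPM, -1.01 ± 0.14, adjusted p = 6.6e-05) and the phosphatase gene Dusp4 (-1.39 ± 0.40, adjusted p = 0.0142). Dusp4 lost its call without siHsp90aa1 replicate 2 (adjusted p = 0.0701). Dusp6 stood at 169, 106 and 118 against 51.1, 34.7 and 47.5 CPM, apart but not past the test (-1.56 ± 0.63, adjusted p = 0.0721). Dusp6 passed with only the libraries compared (adjusted p = 0.00107) and with the replicate block (adjusted p = 0.0117).

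HSP90 holds many kinases and receptors as proteins, and their own transcripts were followed here. Of 37 client kinase genes 7 rose and 3 fell (9 fell with the replicate block), with a median of 0.01. Tgfbr1, Pdgfra, Tgfbr2 and Tyk2, described above, had the smallest p, followed by Fgfr2 (13.9, 15.6 and 17.8 to 24.7, 26.8 and 25.96 CPM, 0.71 ± 0.13, adjusted p = 0.000667). Egfr (-0.26 ± 0.26, adjusted p = 0.506) and Akt1 (-0.01 ± 0.08, adjusted p = 0.942) did not pass, although Egfr did with the replicate block and only the libraries compared (adjusted p = 0.0208). Of 27 nuclear receptor genes 8 rose and 2 fell, the rises being 5 without siCtr replicate 1 or 2 or siHsp90aa1 replicate 3. Nr1d2, a repressor of the circadian clock, fell (91.2, 70.8 and 70.5 to 28.6, 31.6 and 33.3 CPM, -1.31 ± 0.15, adjusted p = 1e-05). The retinoid receptor genes Rarg (0.60 ± 0.09, adjusted p = 0.000166) and Rxra (0.43 ± 0.09, adjusted p = 0.00164) and Esr1, the estrogen receptor (8.66, 10.1 and 10.5 to 19.98, 19.2 and 18.3 CPM, 0.97 ± 0.18, adjusted p = 0.000657), rose. Nr3c1, the glucocorticoid receptor and a classic client, did not pass (0.15 ± 0.17, adjusted p = 0.547). Of 17 glucocorticoid target genes 6 rose (3 without siCtr replicate 2 or siHsp90aa1 replicate 1) and 2 fell. Klf15, a metabolic transcription factor, rose (5.22, 6.76 and 6.88 to 16.7, 15.5 and 17.2 CPM, 1.39 ± 0.35, adjusted p = 0.00673). Fkbp5, which is also a co-chaperone of that receptor, fell (81.2, 82.6 and 79.1 to 40.6, 50.6 and 53.3 CPM, -0.75 ± 0.17, adjusted p = 0.00346).

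Semaphorins and Slits guide growing cells through plexins and other receptors. Of 26 semaphorins, plexins and Slits 8 rose (5 without siCtr replicate 1 or siHsp90aa1 replicate 1) and 5 fell (1 without siHsp90aa1 replicate 1 and 2 without siCtr replicate 1 or siHsp90aa1 replicate 2 and 3 without siCtr replicate 2 or 3). The receptor gene Plxna2 rose (13.7, 17 and 13.8 to 47.5, 38.5 and 26.6 CPM, 1.34 ± 0.25, adjusted p = 0.000769). The ligand gene Sema3a rose at a low level (1.21 ± 0.22, adjusted p = 0.000586), and the receptor gene Plxnb1 fell (34.1, 33.6 and 37.5 to 14.3, 18.4 and 21.96 CPM, -0.95 ± 0.23, adjusted p = 0.00596).

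Of 38 DNA replication genes 13 fell and 0 rose (median -0.32). Mcm3, a subunit of the replicative helicase, went from 201, 179 and 173 to 74.8, 84.1 and 75.5 CPM (-1.24 ± 0.18, adjusted p = 7.7e-05). The sliding clamp gene Pcna went from 251, 237 and 219 to 129.6, 134 and 121 CPM (-0.88 ± 0.13, adjusted p = 0.000113). Ccne1, cyclin E1, went from 34.4, 31.3 and 29.9 to 17.5, 18.8 and 17.2 CPM (-0.84 ± 0.14, adjusted p = 0.000376). Every knockdown library lay under every control in these genes. The falls became 6 without siCtr replicate 1 or siHsp90aa1 replicate 3, and 24 with the replicate block. Of 28 mitotic genes 4 fell and 0 rose (1 without siCtr replicate 1 and 2 without siHsp90aa1 replicate 1 or 3 and 7 without siCtr replicate 3, and 11 with the replicate block). In the main fit the share that fell was near the 13.5% of all genes tested. Birc5, survivin, fell (68.4, 59.5 and 46.7 to 26.8, 29.7 and 27.9 CPM, -1.05 ± 0.19, adjusted p = 0.0006), and Mki67 (-0.16 ± 0.18, adjusted p = 0.547) and Cdk1 (-0.25 ± 0.15, adjusted p = 0.242) did not pass, although Cdk1 did with the replicate block (adjusted p = 0.0461). Of 23 p53 targets and CDK inhibitors 8 rose and 2 fell (4 fell with the replicate block; 1 without siHsp90aa1 replicate 1 or 2). Cdkn2a, which encodes p16 and p19, rose (84.7, 97.3 and 96.4 to 171, 146 and 161 CPM, 0.78 ± 0.13, adjusted p = 0.000232). Ccng1, a cyclin that p53 induces, rose (0.40 ± 0.09, adjusted p = 0.00464), and the pro-apoptotic Pmaip1 fell (21.1, 15.9 and 23 to 6.40, 5.40 and 8.62 CPM, -1.56 ± 0.31, adjusted p = 0.00136).

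Of the 25 genes of HSP90 and its co-chaperones 7 fell, Hsp90aa1 among them, and 1 rose, which was Trap1 (11 fell with the replicate block). Fkbp4 went from 360, 366 and 310.1 to 233, 258 and 255 CPM (-0.47 ± 0.09, adjusted p = 0.000666). Unc45a, which folds myosin with HSP90, went from 71.8, 78.3 and 76.5 to 58.9, 59.04 and 61.7 CPM (-0.34 ± 0.08, adjusted p = 0.00319). Cdc37, the kinase loader (-0.06 ± 0.09, adjusted p = 0.694), Stip1, the HSP70 linker (-0.25 ± 0.12, adjusted p = 0.13), and Ahsa1, the ATPase activator (-0.20 ± 0.09, adjusted p = 0.104), did not pass. Stip1 passed with the replicate block (adjusted p = 0.0284), and Ahsa1 passed with the replicate block (adjusted p = 0.0149) and without siCtr replicate 3 (adjusted p = 0.0379). Heat shock genes, which rise when HSP90 is inhibited by drugs, gave 3 rises and 2 falls among 20 (4 falls with the replicate block, and rises 1 without siHsp90aa1 replicate 1). In the main fit these shares were near or under the 14.8% and 13.5% of all genes tested. Hspa1a stood at 14.5, 15.4 and 20.4 against 34.9, 28.9 and 21.7 CPM (0.77 ± 0.20, adjusted p = 0.00848). Hspa1b stood at 40.4, 30.01 and 41.1 against 74.3, 56.9 and 50.7 CPM (0.71 ± 0.20, adjusted p = 0.0129). These near-identical genes of inducible HSP70 are uncertain singly. Hspa1a lost its call without siCtr replicate 1 or siHsp90aa1 replicate 1 (adjusted p from 0.0501 to 0.0597). Hspa1b lost its call without siCtr replicate 2 or siHsp90aa1 replicate 1 (adjusted p from 0.0679 to 0.0834). Cryab, a small heat shock protein, rose (12.1, 10.97 and 10.2 to 26.1, 16.9 and 16.3 CPM, 0.84 ± 0.20, adjusted p = 0.00398). Hsf2, a heat shock factor, fell (21.96, 17.5 and 20.2 to 12.7, 13.1 and 13.4 CPM, -0.61 ± 0.13, adjusted p = 0.0017). Hsf1 (-0.04 ± 0.07, adjusted p = 0.752), Hspa8 (0.00 ± 0.17, adjusted p = 1) and Dnajb1 (-0.23 ± 0.10, adjusted p = 0.11) did not pass, although Dnajb1 did with only the libraries compared (adjusted p = 0.0315) and with the replicate block and only the libraries compared (adjusted p = 0.0264). A heat shock element, GAA, TTC and GAA with any 2 bases between each, on either strand, was found in 3 of 16 heat shock promoters (18.8%) against 0.662% of all genes. Of the 60 tested genes with it 7 rose (11.7%) and 8 fell (13.3%), near the 16.4% and 14.6% of the 10366 genes without it.

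Of 31 proteasome genes 17 fell and 0 rose, mostly by small amounts (median -0.22). Psmd2, a scaffold subunit of the regulatory particle, went from 396, 416 and 401 to 171, 195 and 225 CPM (-1.04 ± 0.09, adjusted p = 6.2e-07). Psmd6 went from 88.2, 87.1 and 95.2 to 43.9, 51.6 and 63.2 CPM (-0.77 ± 0.11, adjusted p = 8.1e-05). The ATPase gene Psmc4 went from 123, 107 and 116 to 68.5, 75.8 and 84.8 CPM (-0.60 ± 0.09, adjusted p = 0.000104). All 3 stood apart. Psmb7 (-0.33 ± 0.05) and Psmd11 (-0.30 ± 0.05) fell by less. The falls became 10 without siCtr replicate 1. In the endoplasmic reticulum 2 of 21 chaperone genes fell and 1 rose (2 with the replicate block; falls 1 without siCtr replicate 1 or 2 or siHsp90aa1 replicate 1 or 2, rises 0 without siCtr replicate 1 or siHsp90aa1 replicate 3). Pdia3, a disulfide isomerase of glycoproteins, went from 862, 785 and 820.3 to 202, 282 and 409 CPM (-1.47 ± 0.18, adjusted p = 2.8e-05), and Hspa5, the HSP70 of this compartment, did not pass (-0.14 ± 0.08, adjusted p = 0.238). Of 15 mitochondrial chaperones and proteases 3 rose and 0 fell, Trap1 the most, with 1 without siCtr replicate 1 or 3 and 5 with the replicate block. Of 25 genes of the integrated stress response 3 fell and 1 rose (falls 1 without siCtr replicate 1 and 5 without siHsp90aa1 replicate 3, rises 0 without siCtr replicate 1 or 2 or siHsp90aa1 replicate 1 or 3). Its factor gene Atf4 went from 651, 645 and 666 to 454, 473 and 553 CPM (-0.41 ± 0.08, adjusted p = 0.00161), and Asns, asparagine synthetase, did not pass (-0.15 ± 0.12, adjusted p = 0.398).

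Of 24 genes of glycolysis and hypoxia 6 fell and 4 rose (2 without siCtr replicate 1 or siHsp90aa1 replicate 2). The glucose transporter gene Slc2a1 fell (169.6, 169.9 and 153 to 130.3, 114 and 119 CPM, -0.44 ± 0.10, adjusted p = 0.00422). The mitophagy gene Bnip3 rose (9.17, 11.6 and 10.6 to 18.8, 17.4 and 18.4 CPM, 0.80 ± 0.19, adjusted p = 0.00516). Of 18 redox genes 4 rose (2 without siCtr replicate 3 or siHsp90aa1 replicate 1) and 1 fell. Cat, catalase, rose (90.7, 86.2 and 76.3 to 144, 129 and 109 CPM, 0.59 ± 0.12, adjusted p = 0.00128) and Gsr, glutathione reductase, fell (136, 118 and 102.2 to 93.6, 84.1 and 69.3 CPM, -0.53 ± 0.12, adjusted p = 0.00296). Both stood apart between groups.

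The same siRNA was used in the carcinoma line CAF1 without TGFb1, and these libraries share none with the comparison above. There 3867 genes passed (25.4%), 1898 higher (12.5%) and 1969 lower (12.9%); the count was 2460 without CAF siCtr replicate 2 and 2524 without CAF siHsp90aa1 replicate 3. Of the 2247 genes that rose in NF1, 835 also rose in CAF1 (37.2% of the NF1 list and 44.0% of the CAF1 list) and 45 fell there. Of the 2062 that fell in NF1, 1021 also fell (49.5% and 51.9%) and 51 rose. Over 2-fold in both lines were 52 rises and 76 falls, of 180 rises (1.18% of genes tested) and 305 falls (2.0%) of that size in CAF1. The lines differ in origin and in TGFb1, which cannot be told apart.

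The falls of Psmd2, Pdia3 and Tgfbr1 and the rise of Tgfbr2 were found in both lines, and their differences between lines did not pass. Psmd2 changed by -1.10 ± 0.09 in CAF1 (CAF1 minus NF1 -0.06 ± 0.12, adjusted p = 0.836) and Pdia3 by -1.57 ± 0.19 (-0.11 ± 0.26, adjusted p = 0.878). Tgfbr1 changed by -1.02 ± 0.12 (0.30 ± 0.17, adjusted p = 0.364) and Tgfbr2 by 0.95 ± 0.14 (-0.05 ± 0.20, adjusted p = 0.94). With TGFb1 against vehicle, a comparison that shares the siCtr libraries, Psmd2 (-0.04 ± 0.09, adjusted p = 0.799), Pdia3 (0.29 ± 0.18, adjusted p = 0.264) and Tgfbr1 (0.05 ± 0.12, adjusted p = 0.824) did not pass. In the proteasome list 14 of 31 genes fell in CAF1 and 0 rose. Of 38 DNA replication genes 37 fell in CAF1, with a median of -0.95 against -0.32 in NF1, and of 28 mitotic genes 26 fell. The difference of these lists between lines was not tested.

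Other lists had other counts in CAF1. Of the 21 genes of MHC class I and GTPases 1 rose in CAF1, of 35 interferon-stimulated genes 3 rose, and of 29 chemokines and cytokines 0 rose and 7 fell. The difference between lines passed for Nlrc5 (-1.81 ± 0.41, adjusted p = 0.0139), H2-T23 (-1.31 ± 0.26, adjusted p = 0.0065), Psmb10 (-1.03 ± 0.17, adjusted p = 0.00243), Vcam1 (-1.11 ± 0.14, adjusted p = 0.000385) and Cxcl5 (-2.44 ± 0.48, adjusted p = 0.00639). It did not pass for Mx1 (-1.64 ± 0.55, adjusted p = 0.0908), Irf7 (-0.67 ± 0.39, adjusted p = 0.371) or Cxcl10 (-1.80 ± 0.52, adjusted p = 0.0519). Most genes named from lists were chosen by their p in NF1, a choice that favours a smaller change in CAF1. The integrated stress response rose in CAF1 in 17 of 25 genes, and Atf4 went up there (0.38 ± 0.08, adjusted p = 0.00283) and down in NF1 (difference 0.79 ± 0.12, adjusted p = 0.00112). Of 21 contractile genes 7 rose in CAF1, and Tagln differed between the lines (1.30 ± 0.26, adjusted p = 0.00691). Over all genes the difference passed for 832 (5.46%), 372 with the larger value in CAF1 (2.44%) and 460 with the larger value in NF1 (3.02%). The count was 490 without NF siCtr replicate 3, 453 without NF siHsp90aa1 replicate 1, 482 without NF siHsp90aa1 replicate 2, 490 without CAF siCtr replicate 2 and 540 without CAF siHsp90aa1 replicate 2, and 1871 with the replicate block.

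**Figure D5:**
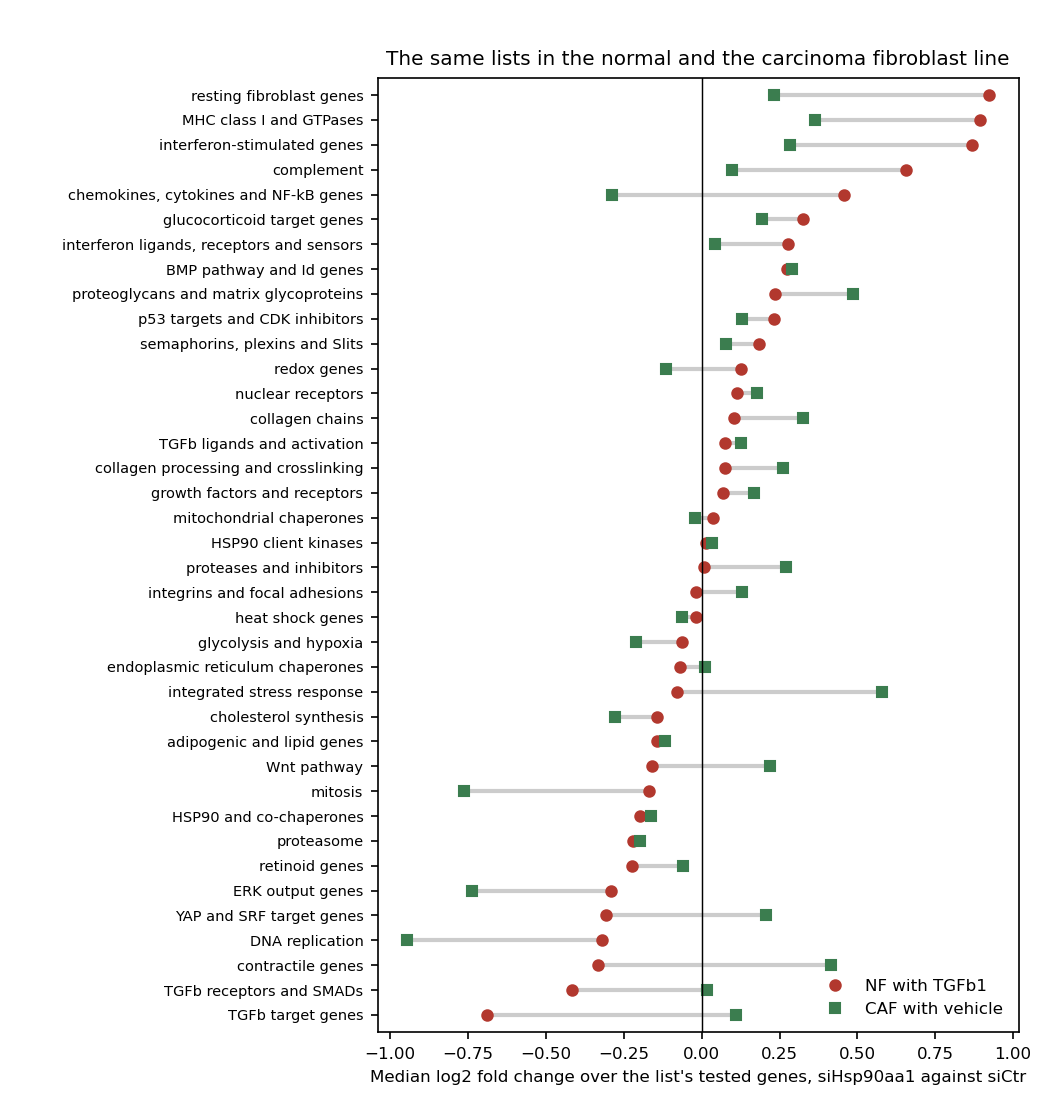
Median log2 fold change of siHsp90aa1 against siCtr over the tested genes of each list, in NF1 with TGFb1 (red circles) and in CAF1 with vehicle (green squares). The proteasome and the HSP90 list have like medians in both lines, while TGFb targets (NF1 -0.69), contractile genes (NF1 -0.33) and the integrated stress response (NF1 -0.08) lie on opposite sides of 0.

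Genes that distinguish the lines without knockdown or TGFb1 were followed as well, and that contrast shares no library with the present comparison. Of 1614 genes (10.6% of those tested) over 2-fold lower in CAF1 than in NF1 with vehicle, 425 rose with siHsp90aa1 in NF1 (26.3%) and 144 fell (8.92%), with a median of 0.25. Of 2282 genes (15.0%) over 2-fold higher in CAF1, 289 rose (12.7%) and 241 fell (10.6%), with a median of 0.01. Over all genes tested the shares were 14.8% and 13.5%.

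siRNA against the constitutive isoform, siHsp90ab1, was used in the same TGFb1-treated cells. Hsp90ab1 stood at 459.7 ± 150.3 CPM there (mean ± SD, n = 3; -2.91 ± 0.21, adjusted p = 1e-06 against siCtr), and Hsp90aa1 at 292 ± 37.3 CPM (-1.05 ± 0.30, adjusted p = 0.0722). The mean of Hsp90aa1 thus lay under all siCtr libraries also with siHsp90ab1, a difference that did not pass. Compared with each other, siHsp90aa1 and siHsp90ab1 differed in 5201 genes (34.1%), 2701 higher with siHsp90aa1 (17.7%) and 2500 lower (16.4%). Against their shared control 409 genes passed with siHsp90ab1 (2.69%), and these 2 comparisons share their control libraries. Interferon-stimulated genes were higher with siHsp90aa1 in 33 of 35 cases, with a median difference of 1.96, and MHC class I and GTPase genes in 21 of 21. Mx1 stood at 7.38 ± 0.165 CPM with siHsp90ab1 (difference 3.58 ± 0.23, adjusted p = 2.9e-08) and Cxcl10 at 70.9 ± 8.10 CPM (3.37 ± 0.32, adjusted p = 5.9e-07), both under the controls. The list median against the control was -1.11 with siHsp90ab1 and 0.87 with siHsp90aa1. Tgfbr1 stood at 41.3 ± 1.75 CPM with siHsp90ab1 (difference -1.46 ± 0.13, adjusted p = 2.5e-07), Tgfbr3 at 100.3 ± 4.90 CPM (1.68 ± 0.11, adjusted p = 2.9e-08) and Ly6a at 19.5 ± 1.38 CPM (3.48 ± 0.20, adjusted p = 1.1e-08). Psmd2 (-1.06 ± 0.09, adjusted p = 1.6e-07) and Pdia3 (-1.44 ± 0.18, adjusted p = 1.4e-05) were likewise lower with siHsp90aa1 than with siHsp90ab1. Among the largest differences were Trim30d, an interferon-induced member of a family with near-identical copies (4.02 ± 0.26, adjusted p = 5.9e-08), Ggt5 (4.68 ± 0.43, adjusted p = 4.6e-07) and Acsbg1 (-3.19 ± 0.51, adjusted p = 0.00013).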

How the data were processed

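RNA from 21 libraries in 7 groups of 3 was measured by stranded mRNA sequencing. Per the submitters' processing notes the tools were STAR and Salmon with GRCm38, with no version or parameter given in those notes. The authors deposited a table of Salmon estimated counts and TPM for 45706 genes; 0 sample columns were left unmapped. Estimated counts were rounded (10.9% were not whole), genes were kept with edgeR's filterByExpr (count minimum 10, total minimum 15), scaled with TMM, and fitted over all 21 libraries with 1 coefficient per group by edgeR 4.0.16 quasi-likelihood (R 4.3.3), with Benjamini-Hochberg adjustment over 15230 genes and a threshold of 0.05. CPM was computed here from the TMM-scaled counts. SE is the log2 fold change over the square root of F. The script was checked on simulated counts.

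The labels mark the replicate number as a batch, so equal numbers pair the libraries. Deviations from group means over 9205 genes correlated at 0.314, 0.0722 and 0.600 for the 3 same-numbered pairs, against a mean of -0.165 for unequal numbers. Over all groups 56 of 63 same-numbered pairs exceeded 0.1. The main fit still had no replicate term, because the series text and protocols state no model. A gene said not to pass is thus one that did not pass without that term. Alternatives were DESeq2 1.42.0, RLE size factors, no filter, only the libraries compared, the replicate block, and leaving out each library.

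Genes were named by rule: the HSP90 genes; the 10 largest rises and falls with at least 5 CPM, no overlap and 1 direction in all pairs; the 5 largest by CPM; the 5 smallest p of each list and up to 4 more per list with a role to explain; and the 3 largest differences each way between lines and between isoforms. The members, lists and named genes were chosen with earlier results of these data known. Of tested genes 99.5% matched GENCODE release M21, and promoters came from RefSeq (GRCm38.p6), with 10426 tested genes matched. Some named genes are not reported here.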

Additional observations from a re-analysis of the deposited data

Results flagged for a closer look

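The effect of siHsp90aa1 differed between CAF1 with vehicle and NF1 with TGFb1 by the test of the difference itself for 14 of the named genes with large changes. Ctsf, Smoc2, Mn1, Prl2c3 and Gbp10 were named because their differences were among the largest that passed, so their passing was fixed by that choice. The others were among the largest changes in NF1, a choice that favours a smaller change in CAF1. CAF1 minus NF1 on the log2 scale, the difference was -3.64 for Ggt5, -2.57 for Wisp2, -2.22 for Ly6c1, -2.55 for Ptpn5 and -2.41 for Ly6a, which all rose in NF1. It was -2.08 for Mrgprf, -1.83 for Tmem86a, -3.43 for Prl2c2, -3.80 for Prl2c3 and -3.49 for Gbp10, the last 3 of families with near-identical copies. For genes that fell in NF1 it was 2.33 for Cmklr1, 2.51 for Ctsf, a lysosomal protease, 2.47 for Smoc2, a matrix protein, and 2.38 for Mn1, a transcriptional regulator. The fall of Smoc2 within NF1, as opposed to its difference between lines, lost its call without siCtr replicate 1 or 2 or siHsp90aa1 replicate 2 or 3 (adjusted p from 0.0827 to 0.144). Differences between lines were not followed gene by gene with libraries left out. The lines also differ in TGFb1, which cannot be told apart from their origin.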

How the results depend on the processing

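The 4309 genes of the NF1 comparison became 4745 with DESeq2, 4296 with RLE size factors, 3690 without the filter, 4647 with only the libraries compared, 5681 with the replicate block (all 4309 kept) and 6032 with the block and only those libraries. Leaving out 1 library gave 2911 to 3801. In CAF1 the 3867 genes became 6883 with the replicate block and only the libraries compared, and 2460 to 4426 with 1 library left out. The difference between lines gave 832 genes, against 1341 with DESeq2, 1871 with the replicate block, 1746 with the block and only the libraries compared, and 453 to 951 with 1 library left out. Its share with the larger value in CAF1 was 44.7%, and 33.6% with only the libraries compared. For siHsp90aa1 against siHsp90ab1 leaving out 1 library gave 3841 to 4700. The cause of these moves was not tested, and fewer samples enter where a library is left out. Of 254 named genes 17 passed with the replicate block that did not otherwise and none lost its call; 11 of them are given beside their values, and Plk1, Manf, Eif2ak3, Htra2 and Phb were among the others. With the block and only the libraries compared 23 named genes newly passed, Fgf21 among them, and Spg7 lost its call (adjusted p = 0.0553). List counts that the block moved stand beside the results.

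Of 210 named genes that passed, 166 kept their call in every alternative. Genes near 0 changed sign without passing. Tgfb3 stood at -0.015 without siCtr replicate 1, -0.039 without siCtr replicate 2 and -0.0024 without siHsp90aa1 replicate 3. Hspa8 stood at 1.2e-05 with DESeq2, 1.66e-05 with RLE, 0.00086 with only the libraries compared, 0.0033 with the replicate block, 0.0068 with both, 0.13 without siCtr replicate 1 and 0.082 without siHsp90aa1 replicate 3, its lowest being -0.11 without siCtr replicate 3. Cdc37 ranged from -0.097 to 0.019, Akt1 from -0.069 to 0.025 and Postn from -0.22 to 0.22 with 1 library left out.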
